A study of Homo sapiens with 4 samples.

Results

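ETS factors are transcription factors that share a winged helix DNA-binding domain, the ETS domain, and bind sites built around the core GGAA. In the lymphoid lineage they are known for roles in development, antigen receptor genes and proliferation. ELK1 and ELK4 are ternary complex factors, which dock on serum response factor and switch on immediate early genes when phosphorylated by MAP kinases. GABPA pairs with a beta subunit and is known for genes of mitochondria, and ETV6 is mainly a repressor.

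Of 10 ETS genes chosen by symbol, 9 had a row in the deposited expression table. These 9 genes held 10 of the 16151 rows that were left after repeated rows were merged. They were ETS1, ETS2, ELK1, ELK4 (with 2 rows), ELF1, ELF4, GABPA, FLI1 and ETV6. ELF2 is not analysed here. All RefSeq accessions of the 10 rows belonged to the named genes in the reference table of gene names. The table holds 4 libraries of polyadenylated RNA from Jurkat, an established human T cell leukemia line. The series sets 1 library titled Control, which its design text calls a control shRNA, against 3 titled SLEAR shRNA-1, -2 and -3, from cells transduced with lentivirus carrying hairpins against SLEAR, a transcript that the series title ties to lupus and apoptosis. All cells are of the same line, grown in RPMI-1640 with fetal bovine serum, and the labels give no time after transduction. Whether the numbers name hairpins or repeats is not stated, nor is it stated that the libraries came from separate cultures, so a p-value here reflects library-to-library spread that can be technical. The question put to these 10 rows is whether ETS factors differ between cells with hairpins against SLEAR and the Control.

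Values are RPM, reads scaled to the library total, and were read at 3′ ends by MAPS, a method that sequences next to the poly(A) tail. Depths estimated from the value of a single read ranged from 4814176 reads (SLEAR shRNA-3) to 8384882 (Control). SLEAR shRNA-3 stood apart. Of all rows, 42.7% were at 0 there, against 14.3% to 18.4% in the other libraries, and only 731 rows held 1 to 9 reads, against 2524 to 3531. That library listed 0 for 26.7% of the rows whose mean in SLEAR shRNA-1 and -2 was 4 to 8 RPM, and for 9.21% of those at 8 to 16 RPM. The fitted difference of each tested member is therefore given with and without that library, and counts of rows are given for SLEAR shRNA-1 and -2 alone as well. The T cell markers CD3D, CD3E, CD3G, CD2, CD7, LCK and CD247 summed to 3793 to 4295 RPM per library. Those of myeloid, epithelial or kidney, and erythroid cells summed to at most 3.19 RPM, and the B cell marker CD79A was at 12.05 to 21.6 RPM.

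Sequence upstream of the ELK4 start is shown because ELK4 was the only member called in any fit, together with the matching stretch of GABPA. Both hold the 8-base ETS consensus CCGGAAGT or its reverse complement ACTTCCGG, in capitals below. The first is the 250 bases before the ELK4 start (GRCh38.p14, chr1:205632012-205632261, minus strand), in which the consensus begins 22 bases before the start. The second is 30 bases around the GABPA match (GRCh38.p14, chr21:25734894-25734923, plus strand), which begins 67 bases before the start, on the opposite strand. Both are RefSeq sequences, printed 5′ to 3′ along the gene.
ELK4: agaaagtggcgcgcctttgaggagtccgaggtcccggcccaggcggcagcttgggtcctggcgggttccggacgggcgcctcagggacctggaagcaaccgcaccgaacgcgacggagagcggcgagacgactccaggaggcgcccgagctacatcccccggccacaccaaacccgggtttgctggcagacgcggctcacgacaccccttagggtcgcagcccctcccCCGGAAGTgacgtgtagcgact
GABPA: acctccgctctACTTCCGGccctggctccg

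RefSeq start windows were at hand for 8 of the 10 genes, 14 windows in all, each of 300 bases. The consensus was present in 2 of these 14, those of ELK4 and GABPA, and in 4.14% of 35116 human start windows of the same length. A match describes the letters only. The deposited data hold no measurement of binding at these places.

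ELK4, a ternary complex factor, had nearly all its reads in the NM_001973 row. In Control this row was at 103.5 RPM, and in SLEAR shRNA-1, -2 and -3 it was at 24.8, 35.4 and 175.9 RPM. It was thus lower in SLEAR shRNA-1 and -2 and higher in SLEAR shRNA-3, so the Control lay inside the range of the SLEAR shRNA libraries. The ratio to Control was 0.240 (95% counting interval 0.203 to 0.282) in SLEAR shRNA-1, 0.342 (0.297 to 0.392) in SLEAR shRNA-2 and 1.70 (1.54 to 1.87) in SLEAR shRNA-3. These exact intervals, like those below, come from the estimated reads and cover counting error only. Over all libraries the SLEAR shRNA mean was 78.7 ± 84.4 RPM (SD, n = 3), and the log2 difference from Control was -0.93 ± 1.17 (SE), which did not pass the limma-trend test (adjusted p = 0.993).

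Without SLEAR shRNA-3, the ELK4 log2 difference was -1.77 ± 0.26 (SE), with an adjusted p of 0.362 over all rows. Among the 4851 rows with a mean log2(RPM + 1) of at least 4, the same difference passed (log2 difference -1.77 ± 0.21, SE, adjusted p = 1.92e-13 by limma-trend). In that fit the spread was pooled completely over rows, so the gap between SLEAR shRNA-1 and -2 in ELK4 itself did not count against it. The same limit holds for every other row called in that fit, including RFWD2, EP300, MCL1, COX4I1 and CD5 below. ELK4 held the second lowest mean difference of SLEAR shRNA-1 and -2 from Control, rank 2 of those 4851 rows, while its difference in SLEAR shRNA-3, 0.76, ranked 578 from the top. A level at least 2-fold below Control in both SLEAR shRNA-1 and -2 together with a level above Control in SLEAR shRNA-3 was found in 7 of the 4851 rows (0.144%). ELK4 had the widest gap of these 7 between SLEAR shRNA-3 and the mean of the other 2, 2.53 on the log2 scale, and MAP4K4, a kinase upstream of JNK signalling, was next with 1.91.

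**Figure D1:**
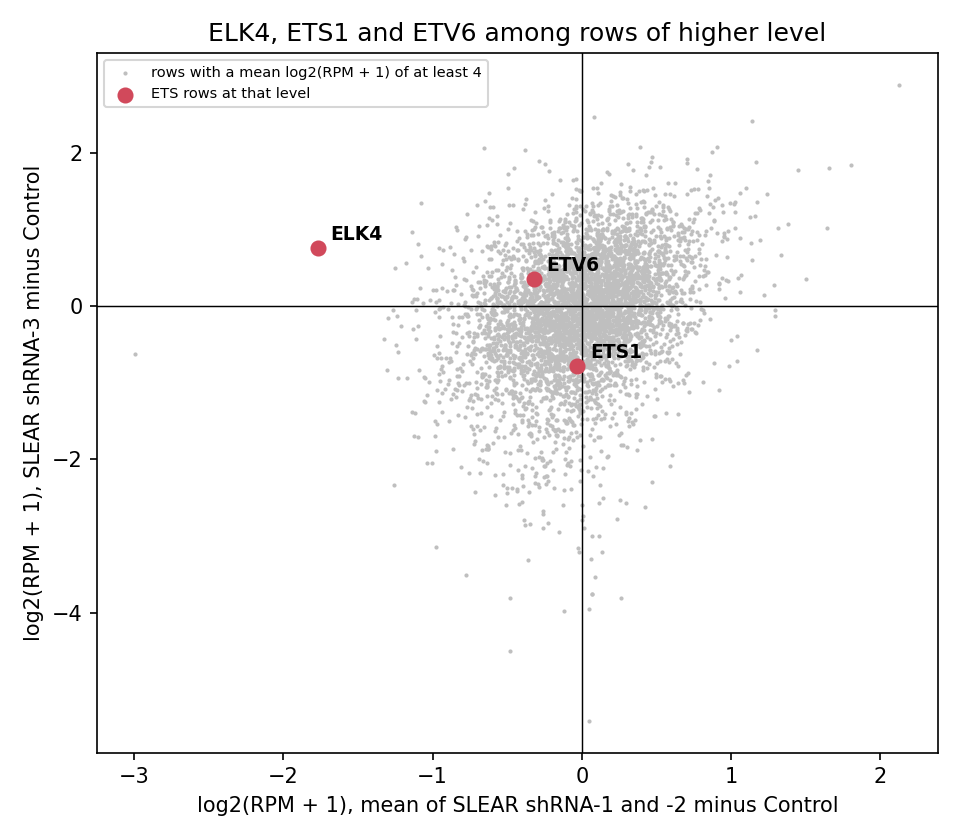
Each grey point is 1 of the 4851 rows with a mean log2(RPM + 1) of at least 4; the x axis is the mean log2(RPM + 1) difference of SLEAR shRNA-1 and -2 from Control and the y axis that of SLEAR shRNA-3. ELK4 lies far left and above 0 (-1.77 and 0.76), while ETV6 (-0.32 and 0.35) and ETS1 (-0.03 and -0.78) lie within the cloud.

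The second ELK4 row, NM_021795, was near the detection limit, at 1.79 RPM in Control and at 0.426, 0 and 1.04 RPM in the numbered libraries in order. Its log2 difference was -0.97 ± 0.63 (SE, adjusted p = 0.993), and -1.22 ± 0.47 (SE, adjusted p = 0.365) without SLEAR shRNA-3. Among the libraries of that second fit the row reached 1 RPM only in Control, so the filter fixed its direction there. GENCODE models of the 2 accessions begin at the same base and end 11325 bases apart, so a 3′ end method reads them at different places. The NM_021795 row held 15 of 883 estimated ELK4 reads in Control (1.70%, Wilson 95% interval 1.03% to 2.78%) and 3 of 178 in SLEAR shRNA-1 (1.69%, 0.575% to 4.84%). In SLEAR shRNA-2 it held 0 of 266, which allows a share of up to 1.13% by a limit of 3 reads (Wilson upper bound 1.42%), and in SLEAR shRNA-3 5 of 852 (0.587%, 0.251% to 1.37%). Its ratio to Control in SLEAR shRNA-1 was 0.238 (0.0441 to 0.841), beside 0.240 for NM_001973, so both rows were lower there. The share of the minor row was near that of Control in SLEAR shRNA-1 and lower in SLEAR shRNA-2 and -3. All 3 Wilson intervals overlapped that of Control. These shares rest on at most 15 reads of the minor row, and a shift of reads between the rows was not tested.

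ELK1, the other ternary complex factor among the members, had a Control level of 11.2 RPM, against 7.52, 11.6 and 45.5 RPM with SLEAR shRNA-1, -2 and -3. SLEAR shRNA-3 was far above Control, with a ratio of 4.06 (3.17 to 5.22), SLEAR shRNA-1 was below it with 0.671 (0.470 to 0.949), and SLEAR shRNA-2 was near it with 1.03 (0.762 to 1.40). The log2 difference was 0.48 ± 1.08 (SE, adjusted p = 0.993) and turned to -0.24 ± 0.37 (SE, adjusted p = 0.765) without SLEAR shRNA-3. For scale, of the rows at 8 to 16 RPM by the mean of the first 2 hairpin libraries, 11.6% were at least 2-fold higher in SLEAR shRNA-3 than that mean and 26.3% at least 2-fold lower. ELK1 and ELK4 thus both had their highest value in SLEAR shRNA-3 and their lowest in SLEAR shRNA-1.

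ETS1, the founding member and a factor of T cell development, reached 145 RPM in Control, 148 RPM in SLEAR shRNA-1, 137 RPM in SLEAR shRNA-2 and 84.1 RPM in SLEAR shRNA-3. The first 3 values lay close together and SLEAR shRNA-3 lay below them. The ratio to Control was 1.02 (0.939 to 1.11) and 0.945 (0.869 to 1.03) in SLEAR shRNA-1 and -2, so no difference was detectable at this depth, and 0.579 (0.516 to 0.649) in SLEAR shRNA-3. The log2 difference was -0.28 ± 0.39 (SE, adjusted p = 0.993) with all libraries and -0.03 ± 0.12 (SE, adjusted p = 0.927) without SLEAR shRNA-3. Its close relative ETS2 was the member on which the SLEAR shRNA libraries came closest together, at 7.52, 7.71 and 7.06 RPM (7.43 ± 0.332, SD, n = 3) against 12.8 RPM in Control. All 3 lay below Control, with ratios of 0.589 (0.416 to 0.826), 0.604 (0.431 to 0.839) and 0.553 (0.365 to 0.821). The log2 difference of -0.71 ± 0.56 (SE) did not pass the test (adjusted p = 0.993, and 0.383 without SLEAR shRNA-3), in which the spread of a row is moderated toward that of other rows of its level.

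ETV6, the repressor, had 87.5 RPM in Control, then 64.8, 75.4 and 112 RPM with SLEAR shRNA-1, -2 and -3. It had the order of ELK4 on a smaller scale, lower in SLEAR shRNA-1 (ratio 0.741, 0.658 to 0.834) and SLEAR shRNA-2 (0.861, 0.770 to 0.962) and higher in SLEAR shRNA-3 (1.28, 1.14 to 1.43). The log2 difference was -0.10 ± 0.37 (SE, adjusted p = 0.993), and -0.32 ± 0.16 (SE, adjusted p = 0.415) without SLEAR shRNA-3. Among rows at 64 to 256 RPM, the median difference between SLEAR shRNA-1 and -2 was 0.13 in absolute log2 value, and that between SLEAR shRNA-3 and their mean was 0.38.

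The remaining members were at low levels. ELF4, known for restraining the proliferation of CD8 T cells, was at 9.90, 9.08, 9.57 and 0 RPM in Control and SLEAR shRNA-1, -2 and -3. GABPA was at 4.77, 4.40, 3.46 and 0 RPM in the same order. In both, SLEAR shRNA-1 and -2 lay within counting error of Control, with ratios of 0.917 (0.652 to 1.29) and 0.967 (0.695 to 1.34) for ELF4 and 0.922 (0.558 to 1.51) and 0.724 (0.424 to 1.22) for GABPA. By the mean of SLEAR shRNA-1 and -2, GABPA falls among rows at 2 to 4 RPM, of which 45.3% were at 0 in SLEAR shRNA-3. ELF4 falls among those at 8 to 16 RPM, of which 9.21% were at 0 there. A 0 in SLEAR shRNA-3 was thus common at the level of GABPA and less common at that of ELF4, and neither is read as absence. By counting alone a 0 there allows a level of up to 0.623 RPM by a limit of 3 reads (Poisson upper bound 0.766 RPM). The log2 difference moved from -1.20 ± 1.65 to -0.08 ± 0.29 (SE) for ELF4 when that library was left out. For GABPA it moved from -1.0 ± 1.24 to -0.23 ± 0.39 (SE), and neither gene passed with it or without it (adjusted p from 0.784 to 0.993). ELF1, a factor of lymphoid genes, was at 2.03, 0.284, 1.06 and 0 RPM, or 17, 2, 8 and 0 estimated reads, with a log2 difference of -1.13 ± 0.64 (SE, adjusted p = 0.993), and -0.90 ± 0.51 (SE, adjusted p = 0.456) without SLEAR shRNA-3. FLI1, a factor of blood and vessel development, was at 0, 0.709, 0.133 and 0 RPM, at most 5 reads in a library, and was not tested.

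**Figure D2:**
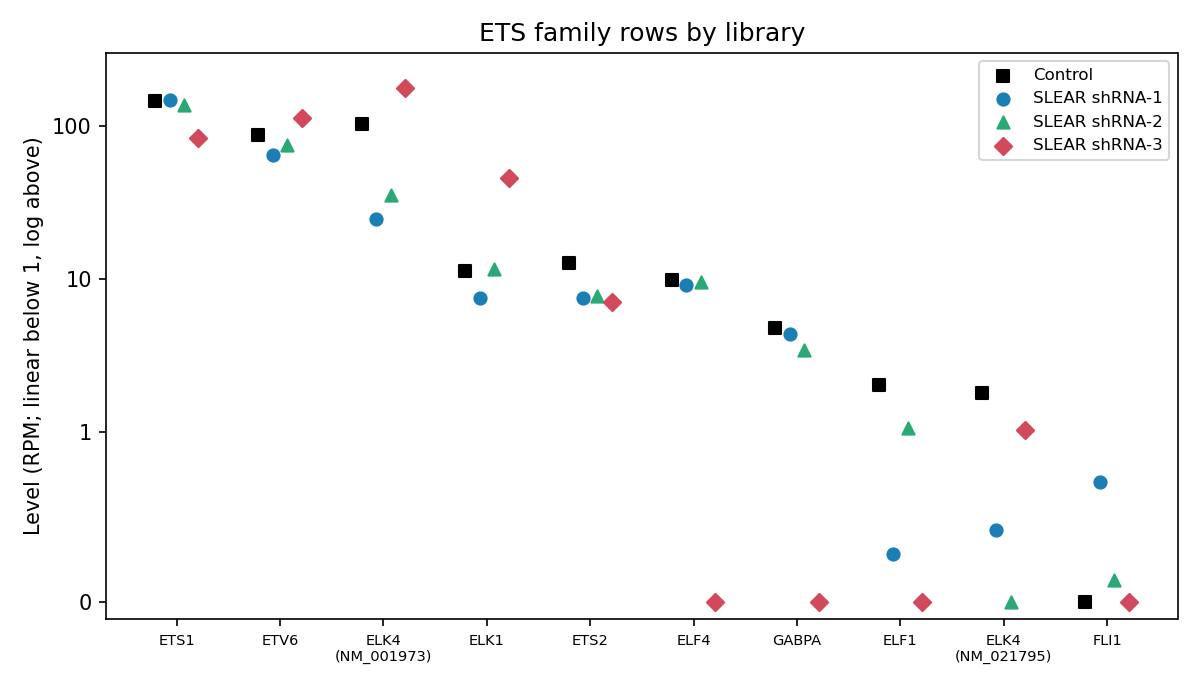
RPM of the 10 ETS rows in the 4 libraries, on an axis that is linear below 1 and logarithmic above. ETS1, ETV6 and the main ELK4 row stand highest; SLEAR shRNA-3 (diamonds) lies above the other libraries for ELK4, ETV6 and ELK1, below them for ETS1, and at 0 for ELF4, GABPA and ELF1.

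In Control, the order of levels was ETS1 (95% Poisson interval 137 to 154 RPM), ELK4 (96.7 to 111), ETV6 (81.3 to 94.1), ETS2 (10.5 to 15.4), ELK1 (9.06 to 13.7), ELF4 (7.88 to 12.3), GABPA (3.41 to 6.50), ELF1 (1.18 to 3.25) and the minor ELK4 row (up to 2.95). Reads come from 1 end per transcript, so these levels were not divided by transcript length. ETS2, ELK1 and ELF4 were not separated beyond counting error, nor were ELF1 and the minor ELK4 row. In SLEAR shRNA-1 and -2 ELK4 stood below ETV6, at 21.3 to 28.8 and 31.2 to 39.9 RPM against 59.0 to 71.1 and 69.3 to 81.8. In SLEAR shRNA-3 it stood first, at 164 to 188 RPM against 103 to 122 for ETV6 and 76.1 to 92.7 for ETS1.

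As a group, 9 of the 10 rows passed the filter of at least 1 RPM in at least 1 library, among 12350 rows tested. None of the 9 was called higher or lower (limma-trend, adjusted p = 0.993 for each), and neither was any other row (0% in each direction). At an unadjusted p under 0.05 there were 92 rows above Control and 239 below it, with 69 and 222 by limma-voom on the estimated reads, which also called 0 and 0. All 3 SLEAR shRNA libraries lay below Control in 5 of the 9 rows (ETS2, GABPA, ELF4, ELF1 and the minor ELK4 row), beside 28.6% of all tested rows, and above Control in 0 of the 9, beside 17.8%. Of these 5 rows, GABPA, ELF4 and ELF1 were at 0 in SLEAR shRNA-3. In that library 3 of the 9 ETS rows were thus at 0, beside 3178 of the 12350 tested rows. Without that library, both others lay below Control in 7 of the 9 rows and above it in 0, beside 5058 and 4345 of the 12350. The median log2 difference was -0.93 over the 9 rows and -0.11 over all tested rows. This -0.93 includes SLEAR shRNA-3 with its rows at 0. By library, the median over the 9 rows was -0.52, -0.37 and -0.77 in SLEAR shRNA-1, -2 and -3. Over all tested rows it was -0.02, -0.04 and -0.23.

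By library, a level at least 2-fold below Control on the log2(RPM + 1) scale was found in 2 of the 9 rows in SLEAR shRNA-1, ELF1 and the main ELK4 row, beside 7.67% of all tested rows. In SLEAR shRNA-2 it was found in 2 of the 9, the 2 ELK4 rows, beside 7.17%, and in SLEAR shRNA-3 in 3 of the 9, the 3 rows at 0, beside 28.4%. A level at least 2-fold above Control was found in 0 of the 9 in SLEAR shRNA-1 and -2, beside 5.66% and 5.22%, and in ELK1 in SLEAR shRNA-3, beside 13.0%. In the fit without SLEAR shRNA-3 on rows of higher level, 3 members could be tested and ELK4 alone was called, as lower, beside 7.26% of rows called lower and 7.11% called higher there. The 3 comparisons by library share 1 Control.

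**Figure D3:**
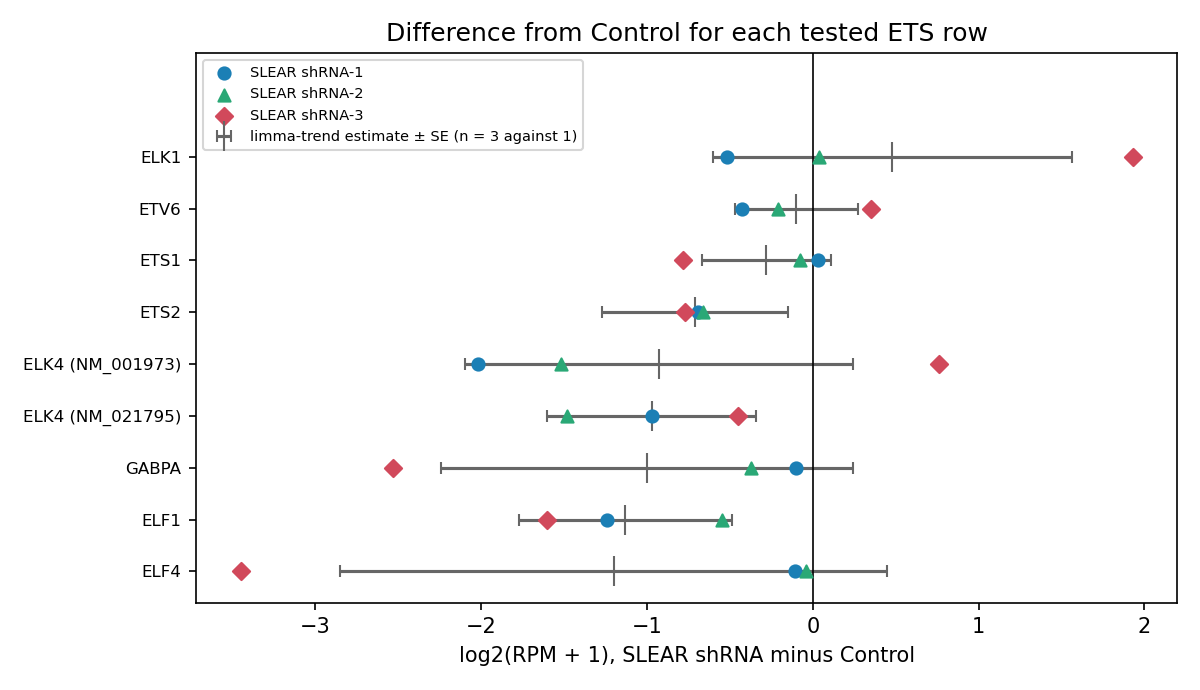
Differences from Control in log2(RPM + 1) for the 9 tested ETS rows, with 1 symbol per SLEAR shRNA library and the limma-trend estimate ± SE as a bar. The 3 symbols nearly coincide for ETS2, whereas SLEAR shRNA-3 lies opposite to the other libraries for the main ELK4 row and far below them for ELF4 and GABPA.

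Other ETS genes were sparse in the table. Of 18 listed, 10 had a row, and 6 rows were tested, of which 2 lay below Control in all 3 libraries and 0 above, beside 28.6% and 17.8% of all tested rows. Those 2 included an ERG row at 1.43 RPM in Control and 0 RPM in every SLEAR shRNA library. It reached 1 RPM only in Control, so the filter fixed its direction. In SLEAR shRNA-1 and -2 alone, 3 lay below and 1 above, beside 5058 and 4345 of the 12350 tested rows. ETV5, of the PEA3 group, was at 12.1, 5.25, 7.71 and 20.6 RPM in Control and the 3 numbered libraries, the same order as the main ELK4 row. ERF, an ETS repressor, was at 8.23, 7.80, 5.32 and 3.95 RPM, and ETV2 was near the floor at 0.358, 1.84, 3.06 and 0 RPM. No row of this list was called.

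Partners and regulators of ETS factors had 29 tested rows, with 11 below Control in all 3 libraries, 1 above (28.6% and 17.8% of all tested rows) and a median log2 difference of -0.23. The 11 below included an SP100 row at 1.19 RPM in Control that reached 1 RPM only there, so the filter fixed its direction. In SLEAR shRNA-1 and -2 alone, 12 lay below and 7 above, beside 5058 and 4345 of the 12350 tested rows. Of the 29, 10 were at 0 in SLEAR shRNA-3, beside 3178 of the 12350 tested rows. SRF, the partner on which ELK1 and ELK4 dock, was at 411, 392, 396 and 322 RPM, so it did not share the low ELK4 values of SLEAR shRNA-1 and -2. The kinase MAPK3 (ERK1), which phosphorylates ELK1, was at 34.7, 48.8, 45.2 and 72.7 RPM. RFWD2 (COP1), a ubiquitin ligase that degrades ETS factors of the PEA3 group, was at 250.5 RPM against 166, 172 and 169 RPM, a log2 difference of -0.56. The coactivator EP300 was at 528 RPM against 392, 414 and 219 RPM. RUNX1, which binds DNA together with ETS1, had a lower row at 25.9 RPM against 14.5, 16.1 and 7.06 RPM, and a higher row at 113, 112, 95.4 and 84.8 RPM. With all libraries none of the 29 was called. Without SLEAR shRNA-3, among rows of higher level, 12 were tested and 2 were called, both lower, RFWD2 (adjusted p = 0.00553) and EP300 (adjusted p = 0.0342 by limma-trend), beside 7.26% of all rows called lower in that fit.

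Immediate early genes of the kind that ternary complex factors switch on had 10 tested rows, of which 3 lay above and 3 below Control in all 3 libraries, beside 17.8% and 28.6% of all tested rows, with a median log2 difference of -0.23. Of the 3 below, JUNB and EGR2, at 1.19 and 1.31 RPM in Control, reached 1 RPM only there, so the filter fixed them as below Control. In SLEAR shRNA-1 and -2 alone, 3 lay above and 4 below, beside 4345 and 5058 of the 12350 tested rows. MCL1, a survival factor known as a target of ternary complex factors, was at 175, 107, 139 and 188 RPM, the same order as ELK4. IER3 was at 25.4, 26.5, 28.8 and 66.3 RPM and IER2 at 555, 624, 577 and 829 RPM, highest in SLEAR shRNA-3. EGR1 was at 10.1, 7.94, 12.1 and 7.48 RPM and EGR4, near the floor, at 4.05, 3.69, 1.20 and 0 RPM. No row was called with all libraries. Of 3 tested without SLEAR shRNA-3, MCL1 alone was called, as lower (log2 difference -0.52, adjusted p = 0.0200 by limma-trend), beside 7.26% of all rows called lower there.

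Genes with known sites for other members did not move as 1 group. Of 6 mitochondrial genes with known GABP sites, 2 lay above and 2 below Control in all 3 libraries (median -0.09), and 3 above and 3 below in SLEAR shRNA-1 and -2 alone. The 2 below in all 3 libraries were TFB1M and TFB2M, at 1.91 and 1.19 RPM in Control. Both reached 1 RPM only there, so the filter fixed them as below Control. COX4I1, of cytochrome c oxidase, was at 774, 1155, 1263 and 1414 RPM, COX5B of the same enzyme at 58.8, 69.4, 89.7 and 84.5 RPM, ATP5B of the ATP synthase at 858, 1045, 1040 and 637 RPM, and TFAM, the mitochondrial transcription factor, at 4.89, 2.55, 3.72 and 6.65 RPM. Of 6 tested lymphoid genes with known ETS sites, 2 lay above and 1 below in all 3 libraries (median 0.16), and 5 above and 1 below in SLEAR shRNA-1 and -2 alone. Over all tested rows the shares in all 3 libraries were 17.8% above and 28.6% below. For SLEAR shRNA-1 and -2 alone, 4345 of the 12350 tested rows lay above and 5058 below. KLF2, a factor of T cell quiescence downstream of ELF4, was at 4.05, 12.2, 8.11 and 14.7 RPM, and LCK, a T cell receptor kinase, at 753, 925, 884 and 1037 RPM. The surface protein CD5 was at 39.48, 65.8, 61.5 and 33.9 RPM and the integrin ITGA4 at 36.9, 26.1, 25.7 and 28.9 RPM. With all libraries none was called, and without SLEAR shRNA-3 COX4I1 (adjusted p = 1.35e-05) and CD5 (adjusted p = 0.0116) were called higher by limma-trend, of 3 and 4 rows tested, beside 7.11% of all rows called higher there.

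**Figure D4:**
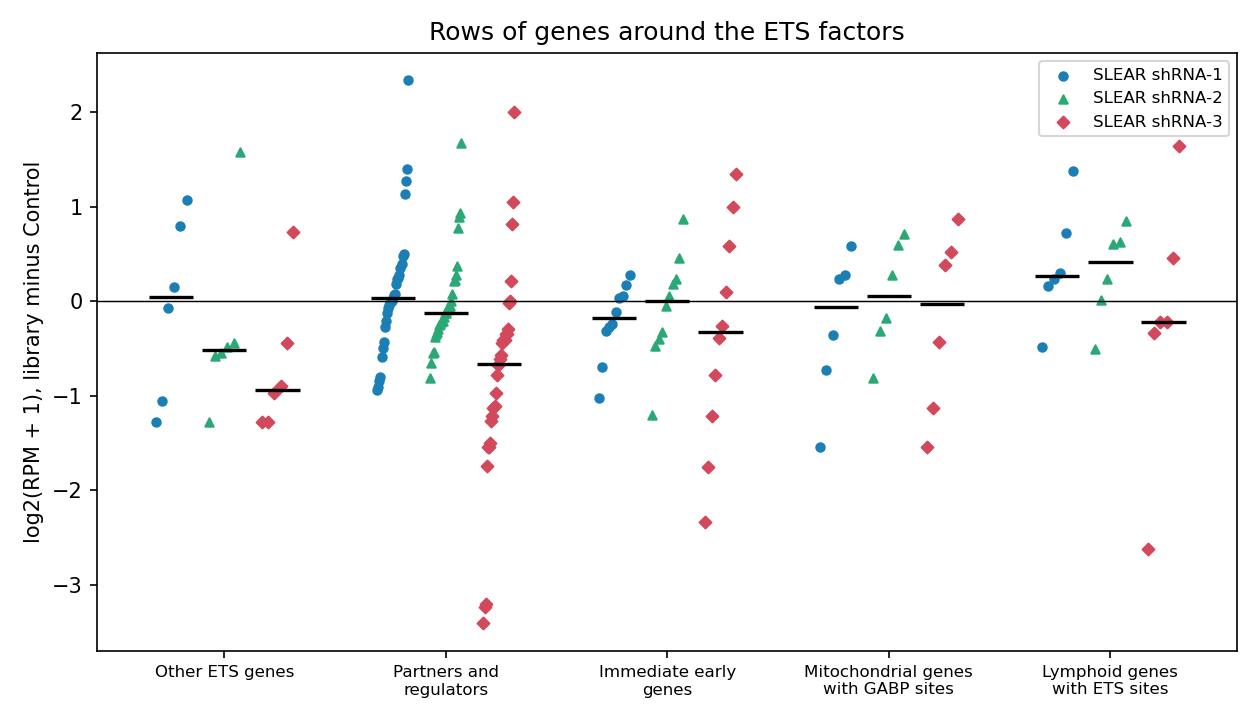
Differences of each SLEAR shRNA library from Control in log2(RPM + 1) for the tested rows of 5 gene lists (1 symbol per row and library; black bars are medians). Medians of partners and regulators are 0.03, -0.13 and -0.66 in SLEAR shRNA-1, -2 and -3, and the lowest symbols are rows at or near 0 in SLEAR shRNA-3.

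Profiles over the 4 libraries most like those of ELK4 and ETS1 were found by Euclidean distance between centred log2(RPM + 1) values. For ELK4, among 539 rows of sufficient range, the nearest were NOC3L at 0.58, MAP4K4 at 0.70 and HECA at 0.74, against a range of 2.78 in ELK4 itself. NOC3L was at 29.9, 11.1, 16.8 and 77.9 RPM and HECA at 97.9, 40.01, 45.7 and 146 RPM. For ETS1, among 3883 rows, the nearest were TMEM201 at 0.05, ARF6 at 0.06 and RBMX at 0.07. ARF6, a small GTPase, was at 41.7, 44.7, 40.8 and 25.1 RPM. In these 3 rows, as in ETS1, SLEAR shRNA-3 alone stood apart. With 4 libraries such likeness is a description.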

How the data were processed

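Polyadenylated RNA of Jurkat cells was read by MAPS in 1 Control and 3 SLEAR shRNA libraries. The deposited values are RPM, made by the authors from reads on genome build hg19, with Bowtie2, SAMtools and FastQC named in the submitters' processing notes. The assignment of reads to rows, and their division between rows, are not given in the sources used here. Of 16328 rows, 177 that repeated another row exactly were merged (mean of at least 1 RPM). Most values were whole multiples of a step (96.5% to 97.0% within 0.05 reads), from which depths were estimated, but not all, so they were not treated as counts.

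Log2(RPM + 1) was fitted with limma-trend (limma 3.58.1, R 4.3.3) for the 12350 rows that reached 1 RPM in some library. P-values were adjusted over all of them (Benjamini-Hochberg, threshold 0.05). A fold on this scale understates changes of low rows. The spread comes from the SLEAR shRNA libraries, and the single Control is assumed to vary like them. In the fit without SLEAR shRNA-3 on rows of higher level, it was pooled completely over rows, so no call there rests on a row's own spread. Counting intervals (Poisson, Wilson and exact conditional binomial, 95%) used estimated reads in scipy 1.17.1. No molecular identifiers are stated, and these intervals and limits cover counting error only.

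The members, gene lists and tests were chosen with earlier results of these data known. All member rows are given, with up to 4 rows of each list (smallest p, mean of at least 1 RPM) and the 3 nearest profiles of ETS1 and ELK4. SRF, EGR1, the higher RUNX1 row and the rows sharing the ELK4 pattern were named after their values were seen. So were the list rows that reached 1 RPM only in Control. No value of SLEAR is analysed here, and its knockdown is unchecked. Coordinates are RefSeq GRCh38.p14, not hg19, and only for the printed sequences.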

Additional observations from a re-analysis of the deposited data

How the results depend on the processing

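The 9 tested ETS rows were refitted under 14 alternatives, and of 113 differences 109 kept their direction and side of the threshold. ELK1 turned to -0.24 without SLEAR shRNA-3 and to -0.10 with array weights, where SLEAR shRNA-3 has a weight of 0.142 (range without 1 library -0.24 to 0.98). ETV6 turned to 0.07 without SLEAR shRNA-1 (range -0.32 to 0.07). ELK4 (NM_001973) ranged from -0.38 to -1.77 without 1 library, and passed only without SLEAR shRNA-3 among rows of higher level. That setting called 345 rows higher and 352 lower, and no filter on low values called 1 and 376, against 0 and 0. The cause was not tested. Leaving out 1 library at a time called 0 in both directions, with 7 to 797 rows higher and 11 to 854 lower at an unadjusted p under 0.05. Under other scalings or without 1 library, between 4 and 7 ETS rows lay below Control in every library. TMM factors gave 4 and equal column sums gave 6. Above Control lay 0 to 1 (ELK1 without SLEAR shRNA-1). Of all tested rows, 28.6% lay below and 17.8% above in the main setting. Without SLEAR shRNA-3 it was 5058 and 4345 of the 12350. Shares for the other settings were not computed, so a change in these counts is not a result about the ETS rows. The counts of ETS rows were chosen after seeing the data. No paired analysis was possible because there is 1 Control library.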
